A study of Mus musculus with 14 samples.

Results

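Transcripts of 7 genes of the Six-Eya network, Six2, Six4, Six5, Eya1, Eya2, Eya3 and Eya4, were measured in mouse skeletal muscle among the 54532 genes of the deposited tables. The members were matched by gene symbol. They were chosen by measured values as well as by family: Eya4 was already known to be lower in OE-WD than in CT-WD muscle, the group names being given below, so every value of that contrast is a description with no test. All 7 passed the filter on low counts that kept 15458 genes for testing.

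Six-family proteins are homeodomain transcription factors that bind MEF3 sites in the regulatory regions of muscle genes. Eya proteins do not bind DNA by themselves. They are recruited by Six-family proteins as coactivators and also carry a phosphatase domain, and Dach proteins are further cofactors of the same complexes. In the embryo the network acts upstream of the myogenic factors, and in adult fibres it maintains the fast, glycolytic gene programme.

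The libraries were poly(A)-selected RNA of skeletal muscle from male FVB/N mice. Endothelial c-Myc overexpression (EC-Myc OE, here OE) mice carried a tetO-driven human MYC transgene together with Cdh5-tTA, a transactivator made in endothelial cells, and control (CT) mice were littermates with the tetO transgene and without the transactivator. Doxycycline diet, which keeps the transgene silent, was withdrawn at 4 to 6 weeks of age, and the mice then received a control diet (CTD) or a high-fat western diet (WD) for 20 weeks per the labels. The 4 groups were CT-CTD with 3 libraries, CT-WD with 3, OE-CTD with 4 and OE-WD with 4. The publication gives another time on diet where it describes these data, so the time on diet and the age at harvest are uncertain. The study's methods name soleus and gastrocnemius as the skeletal muscles, and the labels do not say which muscle each library came from. The transgene is thus driven in endothelial cells and not in muscle fibres, and each library holds the RNA of all cells of the muscle.

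Total counts per library ran from 24101226 to 25054855 in CT-CTD, from 21833839 to 26518734 in CT-WD, from 22083340 to 28519159 in OE-CTD and from 22033140 to 27698046 in OE-WD. The muscle label was checked against its defining markers. The 6 defining muscle genes (Acta1, Ckm, Mb, Ttn, Des, Neb) summed to between 69350 and 96930 CPM (counts scaled to a common library total after TMM normalisation) in each library, none of them was at 0, and Acta1 was the most abundant.

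Replicates of a group were not equally alike. They differed by more than counting error, with a chi-square per degree of freedom of 7.76 to 50.3 between pairs of a group. Pairs of CT libraries lay at 16.5 to 50.3, the largest value being that of CT-WD replicates 1 and 3. Replicate 4 of OE-CTD lay at 36.3 to 42.4 from the other OE-CTD libraries, which lay at 7.76 to 10.5 from each other. Replicate 4 of OE-WD lay at 38.4 to 42.4 from the other OE-WD libraries, which lay at 8.46 to 15.1 from each other. Replicates 1 to 3 of each OE group were thus closer to each other than any pair of CT libraries of a group, and the replicate 4 libraries lay at distances like those between CT libraries. These 2 libraries had the lowest normalisation factors, 0.888 and 0.899. The sample descriptions carry numbers. Each CT library had a number of its own within its group, whereas 4 of the 4 OE-WD libraries shared 1 number and 3 of the 4 OE-CTD libraries, replicates 1 to 3, shared 1 number. What the number stands for is not given, and the replicates are not stated to be separate animals, so a shared origin cannot be told apart from the OE groups.

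The group names carry a further doubt. The sizes given for the groups in the publication follow the diet, whereas the sizes in the labels follow the genotype, and the labels were kept. If the names CT-WD and OE-CTD were exchanged, each genotype comparison on 1 diet would become a diet comparison in 1 genotype, and the Eya4 differences reported for genotype would then be differences between diets. The publication also reports more genes altered by diet in each genotype than by genotype on the western diet. By edgeR (unadjusted p under 0.05, fold over 1.5), 471 genes were called in CT-WD against CT-CTD and 212 in OE-WD against OE-CTD. In OE-CTD against CT-CTD 1101 were called, and in OE-WD against CT-WD 887. As labelled, both diet counts are thus below the genotype count on the western diet, the reverse of the published order. With the names exchanged, 1101 and 887 would be the diet counts and 212 the genotype count on the western diet. Those counts would have the published order. Whether the names were exchanged was not tested. Every genotype result below rests on the labels.

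Six2 (ENSMUSG00000024134) lies on the minus strand of chromosome 17 at 85684277 to 85688274 in the GRCm38 build. Six4 (ENSMUSG00000034460) lies on the minus strand of chromosome 12 at 73099609 to 73113456, and Six5 (ENSMUSG00000040841) on the plus strand of chromosome 7 at 19094594 to 19098549. The Eya genes are longer. Eya1 (ENSMUSG00000025932) runs from 14168954 to 14310235 on the minus strand of chromosome 1, and Eya2 (ENSMUSG00000017897) from 165595032 to 165771727 on the plus strand of chromosome 2. Eya3 (ENSMUSG00000028886) runs from 132638987 to 132724765 on the plus strand of chromosome 4, and Eya4 (ENSMUSG00000010461) from 23102963 to 23350786 on the minus strand of chromosome 10. The Six-family members span 4.00 kb (Six2), 13.9 kb (Six4) and 3.96 kb (Six5), and the Eya members 85.8 kb (Eya3) to 247.8 kb (Eya4). No member shares an exon base with another annotated gene, and the 5 genes that lie within their introns had between 0 and 5 counts each over all 14 libraries.

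Levels were compared between genes on the deposited FPKM scale, which divides by gene length. Six2, whose product is best known from kidney progenitors, was the most abundant member, with a mean of 25.8 FPKM ± 3.13 (SD over 14 libraries), above 90.6% of the genes tested. Eya4, which is linked to deafness and cardiomyopathy in people, followed at 5.99 FPKM ± 1.95. Eya1, a coactivator in fast fibres, stood at 4.17 FPKM ± 0.505, and Eya3, which is broadly expressed, at 4.08 FPKM ± 0.403. These 3 were above 69.3%, 61.5% and 61.05% of the genes tested. Six4, which acts in embryonic myogenesis, had a mean of 2.19 FPKM ± 0.245. Six5, the neighbour of the myotonic dystrophy kinase gene, had a mean of 1.56 FPKM ± 0.339. Eya2, which is expressed in embryonic muscle precursors, was lowest at 1.005 FPKM ± 0.405, above 32.0% of the genes tested and with 32 to 125 counts per library.

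The order was clear at some steps and not at others. Six2 was above Eya4 in 14 of 14 libraries with no overlap of their ranges, and Eya3 was above Six4 in 14 of 14 with no overlap. Eya4 was above Eya1 in 13 of 14 libraries, Six4 above Six5 in 14 of 14 with ranges that overlapped, and Six5 above Eya2 in 11 of 14. Eya1 was above Eya3 in 6 of 14 libraries, so these neighbours did not differ beyond their spread.

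**Figure D1:**
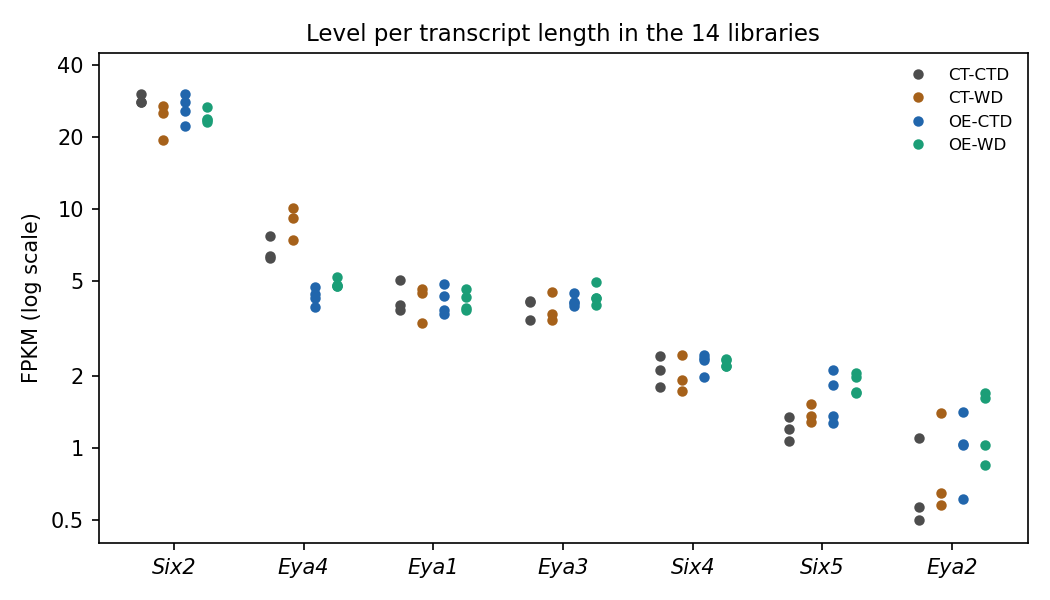
FPKM (log scale) of each gene in each of the 14 libraries, coloured by group, genes in order of mean FPKM. Six2 lies between 19.5 and 30.4 FPKM in every library, above the highest value of Eya4, 10.1 FPKM.

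Spread between replicates also differed among the members. The pooled coefficient of variation within groups, on the CPM scale, was 9.69% for Eya3, 10.3% for Eya4, 10.4% for Six2, 12.1% for Six4, 14% for Eya1, 16% for Six5 and 40.5% for Eya2, against a median of 15.8% over all genes tested. Eya2 was thus the member with the least precise estimate.

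Eya4 was the member with the widest range between groups. The 3 CT-CTD libraries held 67.1, 54.6 and 54.2 CPM of it. The 4 OE-CTD libraries held 36.6, 33.9, 40.9 and 37.4 CPM. All 4 OE-CTD libraries were below all 3 CT-CTD libraries. The CT-WD libraries held 88.0, 63.7 and 79.1 CPM, and the OE-WD libraries 44.9, 41.2, 41.1 and 40.7 CPM. The WD groups did not overlap either, and CT-WD had the highest mean of the 4 groups. Group means were 58.6 CPM ± 7.34 (SD, n = 3) in CT-CTD, 76.9 CPM ± 12.3 (n = 3) in CT-WD, 37.2 CPM ± 2.88 (n = 4) in OE-CTD and 42.0 CPM ± 1.93 (n = 4) in OE-WD. The raw counts behind these values were 732 to 2433 per library.

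The comparison of OE-CTD with CT-CTD asks what endothelial c-Myc overexpression goes with on the control diet. Its group means share no library with the contrast that chose the members, while the spread was estimated over all 14 libraries. Calls required an edgeR adjusted p under 0.05 and a fold over 1.5. Eya4 was the 1 member of 7 called, where 1.91% of all genes tested were called. Its log2 fold change was -0.66 (SE 0.11, 95% confidence interval -0.89 to -0.43, adjusted p = 0.00678), a level 0.634 times that of CT-CTD, and it was number 44 of the 15458 genes ordered by p. Fitted on the libraries of these 2 groups only, it was again -0.66 (SE 0.10, adjusted p = 0.00614). At an unadjusted p under 0.05 and the same fold, 1 member was called as well, against 7.12% of all genes. Eya4 was also the 1 member whose OE-CTD and CT-CTD libraries did not overlap, as in 15.5% of all genes.

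The Eya4 call was near the fold limit and rested in part on CT-CTD replicate 1, the highest of its group. Without that library the log2 fold change was -0.56 (adjusted p = 0.0219) and the fold was under 1.5. With limma on log2(FPKM + 1) it was -0.55 (adjusted p = 0.0190), also under 1.5-fold. Over the 23 settings that kept the group names, 7 of which left out 1 library of these groups, Eya4 was lower in OE-CTD in 23, with adjusted p from 1.13e-05 to 0.0308, under 0.05 in each of the 23. In bulk muscle, fewer cells of a type and less RNA per cell cannot be told apart.

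In OE-WD against CT-WD, the contrast that chose the members, Eya4 had a log2 fold change of -0.87 (SE 0.11), a level 0.545 times that of CT-WD. Here 1 member was called, with 0.563% of all genes called at the adjusted limit and 5.74% at the unadjusted limit, and 2 members had libraries that did not overlap, with 11.6% of all genes. Nothing is read from these counts. The 2 members were Eya4, lower, and Six5, higher at 0.41 (SE 0.19). Over both diets, the 8 OE libraries held 33.9 to 44.9 CPM of Eya4 (median 40.8) and the 6 CT libraries 54.2 to 88.0 CPM (median 65.4). Eya4 was the 1 member whose genotypes did not overlap over both diets, as did 1.83% of all genes, 283 in number, of which 119 were lower in OE. That count includes the libraries of the choosing contrast.

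**Figure D2:**
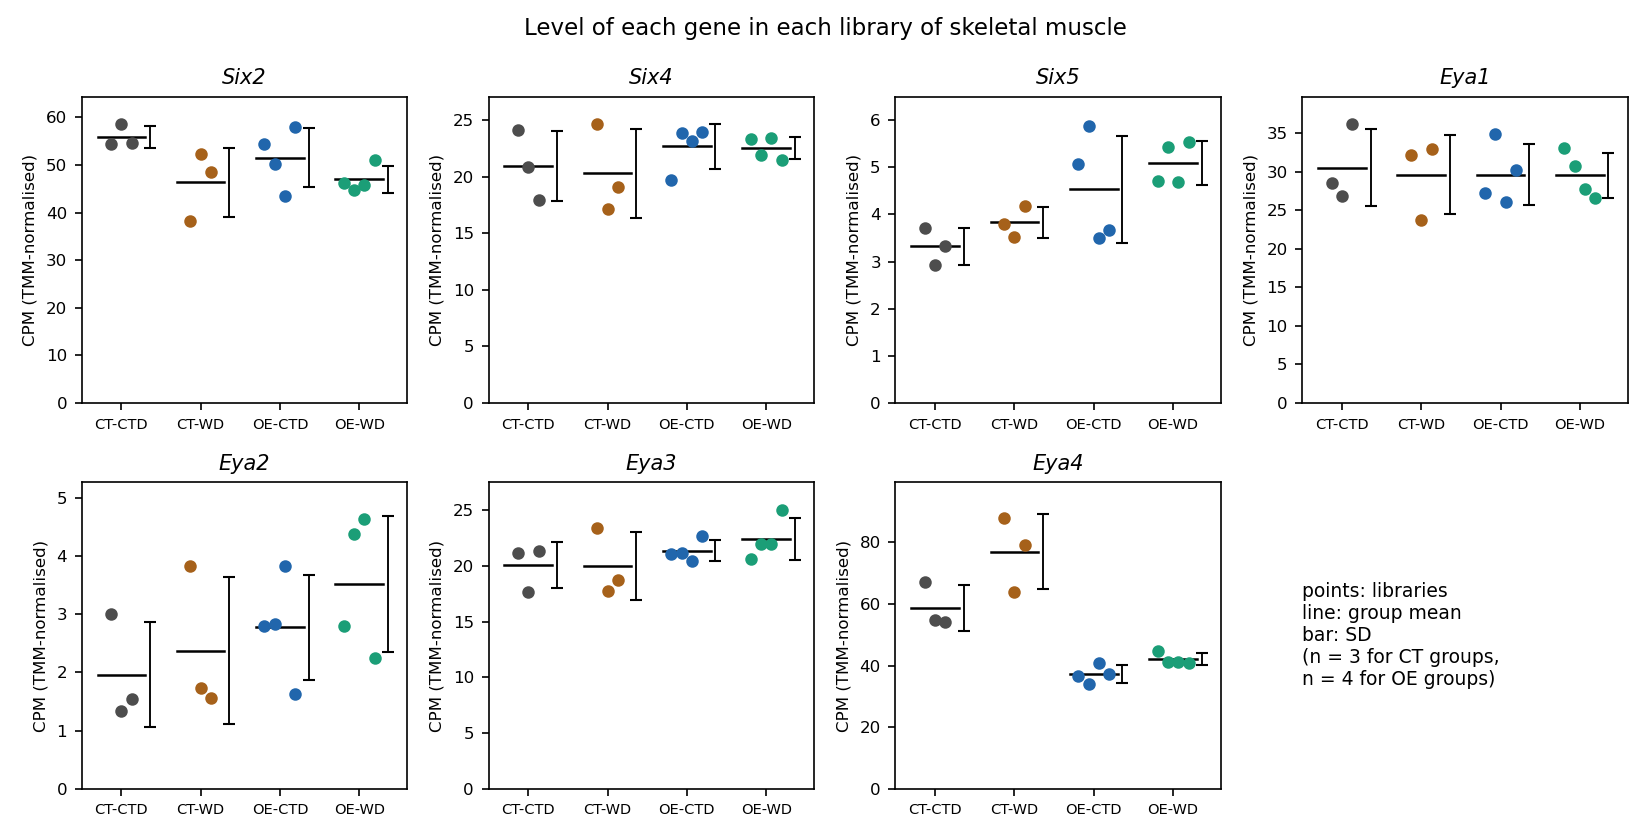
TMM-normalised CPM of each gene in each library by group, with the group mean (line) and SD (bar). For Eya4 the 8 OE libraries lie at 33.9 to 44.9 CPM and the 6 CT libraries at 54.2 to 88.0 CPM, while for each other gene the genotypes overlap.

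The western diet was compared with the control diet within each genotype. In CT-WD against CT-CTD, which shares the CT-WD libraries with the choosing contrast, edgeR called 0 members at the adjusted limit, 0 at the unadjusted limit, and DESeq2 and limma on log2(FPKM + 1) called 0 each. Of all genes tested, 0% were called at the adjusted limit and 3.05% at the unadjusted limit. Eya4 had a log2 difference of 0.39 (SE 0.12), and 0.39 (SE 0.09) with the replicate block, a description since its high CT-WD level entered the choice. The groups overlapped, CT-WD replicate 2 at 63.7 CPM lying under CT-CTD replicate 1 at 67.1 CPM, and within pairs of the same replicate number CT-WD was higher in 3 of 3. Six2 was the 1 member whose libraries did not overlap, as in 9.63% of all genes. Its levels were 54.5, 58.6 and 54.6 CPM in CT-CTD and 38.2, 52.3 and 48.6 CPM in CT-WD. CT-WD replicate 1 was the lowest. The Six2 log2 difference was -0.27 (SE 0.12, adjusted p = 0.646), and -0.15 without CT-WD replicate 1.

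In OE-WD against OE-CTD, which shares the OE-WD libraries with the choosing contrast, edgeR called 0 members at the adjusted and 0 at the unadjusted limit, DESeq2 and limma 0 each, where 0.00647% and 1.37% of all genes were called. No member had libraries that did not overlap, against 4.08% of all genes. Eya4 had a log2 difference of 0.18 (SE 0.10), again a description. Six2 had one of -0.13 (SE 0.10, adjusted p = 1), -0.20 without OE-CTD replicate 3 and -0.07 without OE-CTD replicate 4.

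The interaction term is the difference of the diet responses of the genotypes, and it equals the choosing contrast minus that on the control diet. By edgeR 0 members were called at the adjusted and 0 at the unadjusted limit, and 0 by DESeq2 and by limma, where 0% and 2.70% of all genes were called. For Eya4 it was -0.22 on the log2 scale (SE 0.15), -0.11 without CT-WD replicate 1 and -0.34 without CT-WD replicate 2. This is a description with no test, because Eya4 was chosen for a low value of the first of these contrasts, which also lowers the difference.

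The members other than Eya4 had smaller or less precise differences between the genotypes. Six5 in OE-CTD against CT-CTD had a log2 difference of 0.45 (SE 0.19, adjusted p = 0.249), from 2.93 to 3.72 CPM in CT-CTD and from 3.50 to 5.87 CPM in OE-CTD, so the groups overlapped, and it was 0.29 without OE-CTD replicate 2. Eya2 had a log2 difference of 0.50 (SE 0.39, adjusted p = 0.590) in that comparison, and 0.94 without CT-CTD replicate 1, which held 3.01 CPM where the others of its group held 1.34 and 1.55 CPM. The Eya2 difference was 0.29 without CT-CTD replicate 2 and 0.31 without OE-CTD replicate 3. Six2 differed by -0.12 (SE 0.11), by -0.05 without OE-CTD replicate 3 and by -0.18 without OE-CTD replicate 4. The counts behind these values were 70 to 178 per library for Six5 and 32 to 125 for Eya2, and the 95% confidence interval of the Eya2 difference ran from -0.33 to 1.33. In the choosing contrast the log2 differences were 0.55 for Eya2, 0.16 for Eya3 and 0.15 for Six4, and they moved with single libraries. Without CT-WD replicate 1 Eya2 was at 1.09, Six4 at 0.32 and Eya3 at 0.29. Without CT-WD replicate 2 Six4 was at 0.04 and Eya3 at 0.09, without CT-WD replicate 3 Eya2 was at 0.32, and without OE-WD replicate 4 Eya3 was at 0.10.

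Eya2 was high in the libraries with over 80 CPM of epidermal genes. It was at 4.64 CPM in OE-WD replicate 3, 4.38 CPM in OE-WD replicate 2 and 3.83 CPM in CT-WD replicate 1, where the 6 epidermal genes summed to 127.6, 86.1 and 95.95 CPM. In OE-CTD replicate 4, with the lowest epidermal sum, 3.22 CPM, Eya2 was lowest of its group at 1.63 CPM. Eya2 was also at 3.83 CPM in OE-CTD replicate 3, with an epidermal sum of 37.9 CPM. Within OE-WD the order did not hold for the other libraries. Replicate 4, with an epidermal sum of 40.7 CPM, had the lowest Eya2 of its group, 2.25 CPM. Replicate 1, with the lowest epidermal sum of its group, 16.65 CPM, had 2.80 CPM of Eya2. In OE-WD against OE-CTD the Eya2 log2 difference was 0.33, and -0.14 without the libraries with over 80 CPM of epidermal genes. CT-WD replicate 1 and OE-WD replicate 2 also had the highest fibroblast sums of their genotypes, 981.1 and 1567 CPM, and the highest tendon sums, 487.1 and 855.4 CPM. The 6 Schwann cell genes summed to 257.1, 86.2 and 194.2 CPM in CT-CTD, by replicate, in the same order as Eya2. They summed to 116.3, 244.8, 261.0 and 113.7 CPM in OE-WD, again in the order of Eya2. In OE-CTD they summed to 237.0, 224.6, 257.9 and 95.2 CPM and in CT-WD to 167.6, 144.8 and 160.4 CPM. There the highest library was also that of Eya2, and the full order differed. The part of other cells in the level of Eya2 was not tested.

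Eya1, Six4 and Eya3 were the steadiest between groups. The highest group mean of Eya1 was 1.03 times the lowest, that of Six4 1.12 times and that of Eya3 1.12 times, against 2.07 times for Eya4. Across libraries Eya1 ran from 23.7 to 36.2 CPM, Six4 from 17.2 to 24.7 CPM and Eya3 from 17.7 to 25.0 CPM.

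As a set the members had no common direction. In OE-CTD against CT-CTD 4 were higher and 3 lower, with a median log2 difference of 0.09, beside -0.001 over all genes tested. In CT-WD against CT-CTD 3 were higher and 4 lower, and in OE-WD against OE-CTD 4 were higher and 3 lower, with medians of -0.002 and 0.07. For the interaction 5 were above 0 and 2 below, with a median of 0.04.

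**Figure D3:**
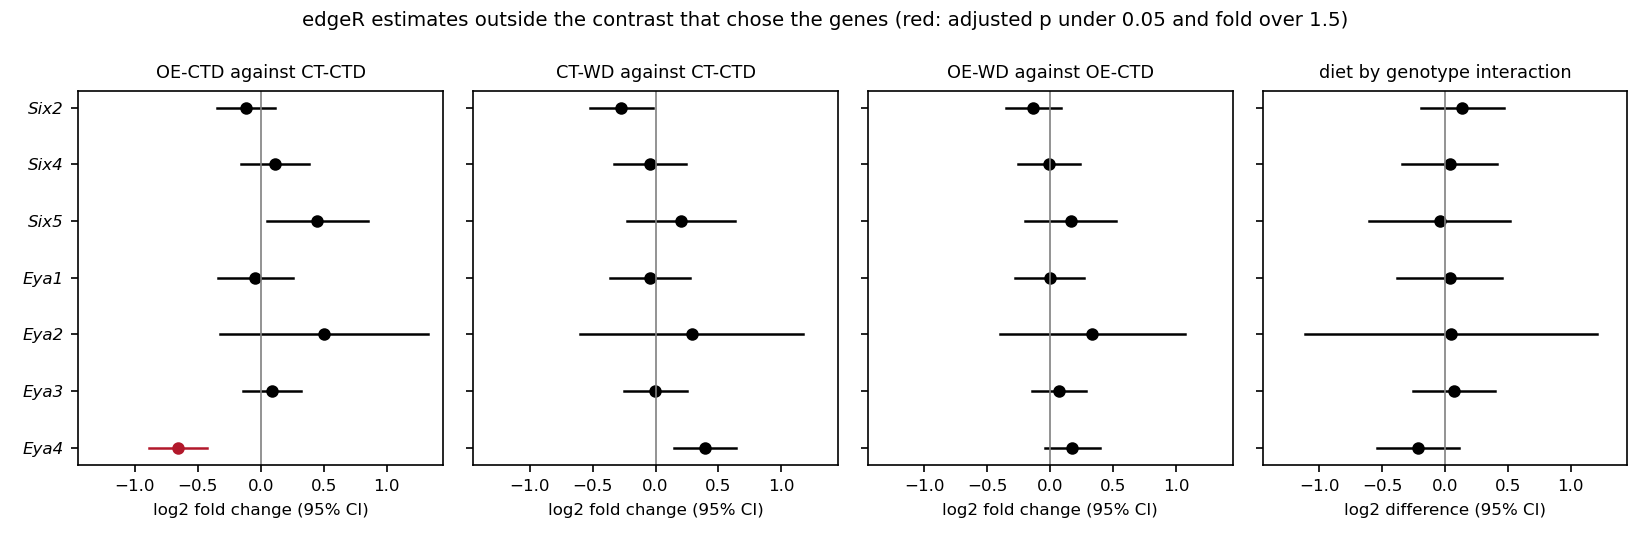
Log2 fold change of each gene with its 95% confidence interval (edgeR) in the 3 group comparisons outside the contrast that chose the genes and for the interaction. The 1 estimate in red, Eya4 in OE-CTD against CT-CTD at -0.66, has an adjusted p under 0.05 and a fold over 1.5.

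On the control diet, marker lists of some other cell types stood higher in OE muscle as labelled, and their part in the Eya4 difference was not tested. With the names OE-CTD and CT-WD exchanged, this would be a difference between diets. In OE-CTD against CT-CTD the 6 fibroblast genes were all higher, with a median log2 difference of 0.91, 0 of them called at the adjusted limit by edgeR, 3 by DESeq2 and 0 by limma on log2(FPKM + 1), and 6 at the unadjusted limit of edgeR. Their summed level was 319.3 to 435.1 CPM in CT-CTD and 635.5 to 1083 CPM in OE-CTD, with Dcn the most abundant. The 7 tendon genes were all higher with a median of 1.15, 0 called adjusted by edgeR, DESeq2 or limma and 4 unadjusted, and their sum was 105.6 to 241.5 CPM in CT-CTD and 312.9 to 617.2 CPM in OE-CTD, with Fmod the most abundant. The 6 macrophage genes were all higher with a median of 0.88, 0 called adjusted by edgeR, 3 by DESeq2, 0 by limma and 6 unadjusted, and their sum was 22.0 to 42.0 CPM against 46.5 to 71.0 CPM, with Csf1r the most abundant. None of the summed ranges of these 3 lists overlapped between CT-CTD and OE-CTD. No gene of these lists was at 0 in any library. Within the CT-WD group, replicate 1 had a fibroblast sum of 981.1 CPM, against 353.6 and 355.6 CPM in the others, and it was also the library with the most Eya4, 88.0 CPM.

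On the western diet the tendon genes were 7 of 7 higher in OE-WD than in CT-WD (median 1.25), the fibroblast genes 6 of 6 (median 0.57) and the macrophage genes 6 of 6 (median 0.21), edgeR, DESeq2 and limma calling 0 of them at the adjusted limit and edgeR 2, 1 and 0 at the unadjusted limit. Over both diets the sums of these lists overlapped between the genotypes, for fibroblast and tendon genes through CT-WD replicate 1 alone. Without it the CT libraries were at most at 435.1 and 241.5 CPM, below every OE library. Fibroblast genes summed to 319.3 to 981.1 CPM in the 6 CT libraries and 635.5 to 1567 CPM in the 8 OE libraries. Tendon genes summed to 87.8 to 487.1 CPM and 309.3 to 855.4 CPM, and macrophage genes to 22.0 to 69.9 CPM and 41.9 to 75.5 CPM. In CT-WD, replicate 1 had a macrophage sum of 69.9 CPM, and the other CT-WD libraries, at 28.7 and 33.2 CPM, lay within the range of CT-CTD. Between the diets, the publication reports matrix and collagen genes higher on the western diet in both genotypes. The fibroblast genes here were 6 higher and 0 lower in CT-WD against CT-CTD (median 0.48). In OE-WD against OE-CTD they were 3 higher and 3 lower (median 0.02). For tendon genes these were 5 and 2 (0.23) and 6 and 1 (0.24), and for macrophage genes 6 and 0 (0.60) and 3 and 3 (-0.03).

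The endothelial sum did not overlap between the genotypes within either diet. The 8 endothelial genes were all higher in OE-CTD, with a median log2 difference of 0.31 and 0 called at either limit of edgeR or by DESeq2 or limma, and their sum was 323.1 to 334.0 CPM in CT-CTD and 372.1 to 432.1 CPM in OE-CTD, with Cdh5 the most abundant. On the western diet it was 343.6 to 394.1 CPM in CT-WD and 428.4 to 451.4 CPM in OE-WD. Of the 8 genes, 6 were higher and 2 lower in OE-WD against CT-WD (median 0.35), with 0 called at either limit of edgeR. Over both diets the endothelial sum overlapped, at 323.1 to 394.1 CPM in CT and 372.1 to 451.4 CPM in OE, through CT-WD replicate 1 alone, the other CT libraries being at most at 347.3 CPM. The 6 satellite cell genes had 3 higher and 3 lower with a median of -0.05. Their sum was 61.1 to 74.9 CPM in CT-CTD and 53.4 to 57.3 CPM in OE-CTD. Myod1, the most abundant of them in the mean over the 14 libraries, was the 1 gene called, lower. In OE-CTD Cdh15 was above it, with means of 26.2 and 21.05 CPM. Over both diets the satellite cell sum was 51.7 to 61.0 CPM in the 8 OE libraries, below the 61.1 to 80.9 CPM of the 6 CT libraries. That separation rested on Myod1. Without it the sum was 36.6, 32.2 and 37.6 CPM in CT-CTD and 31.1, 34.2, 31.4 and 37.2 CPM in OE-CTD, which overlap. None of these genes was at 0 in any library.

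The adipocyte and epidermal lists overlapped between the genotypes on the control diet. The 6 adipocyte genes (1 higher, 5 lower, median -0.22, Fabp4 most abundant) summed to 234.5 to 479.1 CPM in CT-CTD and 159.3 to 350.3 CPM in OE-CTD. The 6 epidermal genes (3 higher, 3 lower, median 0.21, Krt5 most abundant) summed to 5.19 to 42.2 CPM and 3.22 to 38.2 CPM, and up to 3 of them were at 0 in 1 library. In OE-CTD against CT-CTD 0 genes of these 2 lists were called at the adjusted limit by edgeR, DESeq2 or limma. In OE-WD against CT-WD DESeq2 called Lep, an adipocyte gene, higher, and edgeR and limma called 0. At the unadjusted limit of edgeR the calls in OE-CTD against CT-CTD were 1 higher and 1 lower for adipocytes and 1 higher for epidermis. The 6 defining muscle genes had 3 higher and 3 lower, a median of 0.01 and 0 called at either limit of edgeR or by DESeq2 or limma. In OE-WD against CT-WD the defining muscle genes had 0 higher and 6 lower (median -0.07), with 0 called at either limit of edgeR. The epidermal genes had 6 higher and 0 lower there (median 0.875), and the adipocyte genes 4 higher and 2 lower (median 0.53). In 3 libraries, CT-WD replicate 1, OE-WD replicate 2 and OE-WD replicate 3, the epidermal sum was over 80 CPM. None of these 3 belongs to OE-CTD or CT-CTD.

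Further genes of the network gave 1 call in OE-CTD against CT-CTD. Of 13 symbols listed 12 were in the tables and 9 were tested, since Six3 had 0 counts in every library, Six6 at most 2 and Pax3 at most 10. Of the 9, 0 were called higher and 1 lower at the adjusted limit, and 1 higher and 1 lower at the unadjusted limit. Their median log2 difference was 0.12, with 6 higher and 3 lower. The gene called was Myod1, a myogenic factor downstream of Six-family proteins that is also on the satellite cell list. Myod1 measured 24.6, 42.6 and 34.5 CPM in CT-CTD and 22.3, 19.3, 22.5 and 20.1 CPM in OE-CTD. All 4 OE-CTD libraries were lower, the nearest pair being 22.5 and 24.6 CPM. Its log2 fold change was -0.69 (SE 0.16, adjusted p = 0.0346). That call was not stable. Myod1 was lower in 23 of 23 settings, at -0.88 to -0.49 with adjusted p from 0.00104 to 0.190, and called in 14. It was not called without CT-CTD replicate 2 (-0.49), CT-CTD replicate 3 (-0.67), OE-CTD replicate 1 (-0.72), OE-CTD replicate 2 (-0.65), OE-CTD replicate 3 (-0.72) or OE-CTD replicate 4 (-0.67), nor without both libraries with a normalisation factor under 0.9 (-0.67), nor by limma on log2(FPKM + 1) (-0.61) or log2(FPKM + 0.1) (-0.65).

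Dach1, a cofactor of the complexes, was at 4.19, 4.73 and 3.77 CPM in CT-CTD and at 7.36, 8.68, 7.26 and 7.04 CPM in OE-CTD. These groups did not overlap, and the log2 difference of Dach1 was 0.84 (SE 0.26, adjusted p = 0.112), short of the adjusted limit. It was called in 5 of the 23 settings, namely by DESeq2 (adjusted p = 0.0340), with no filter on low counts (adjusted p = 0.0255), on its 2 groups only (adjusted p = 0.0116), without CT-WD replicate 1 (adjusted p = 0.0452) and without the 3 libraries with over 80 CPM of epidermal genes (adjusted p = 0.0235). Over the 23 settings its adjusted p ran from 0.0116 to 0.350.

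In the 4 other comparisons edgeR called 0 network genes at the adjusted limit. At the unadjusted limit it called 1 lower in OE-WD against CT-WD, 1 higher in CT-WD against CT-CTD, 0 in OE-WD against OE-CTD and 1 lower for the interaction. DESeq2 called 1 gene lower in OE-WD against CT-WD, Myog, and 0 in the others, and limma called 0 in each. Myog was at 7.95, 18.9 and 76.6 CPM in CT-WD and at 5.86 to 9.46 CPM in OE-WD, so the groups overlapped and CT-WD replicate 3 stood far above the rest.

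The fast fibre and glycolysis genes, whose programme the network is known to maintain, and the slow fibre genes gave 0 calls at the adjusted limit in edgeR, DESeq2 or limma in each of the 5 comparisons. Of 13 fast fibre genes, 8 were higher and 5 lower in OE-CTD against CT-CTD, with a median log2 difference of 0.02, and 1 was called lower at the unadjusted limit, Tnnc2 at -1.11 (SE 0.48), with 6 to 38 counts per library. Tnnc2 had a mean of 0.684 CPM, beside 1793 CPM for Casq1, the next lowest of that list. At such a level Tnnc2 is a poor measure of the fast fibre genes, and why it was so low was not tested. Myh4, the most abundant, differed by -0.24 (SE 0.16, adjusted p = 0.518). Of 12 slow fibre genes, 12 were higher and 0 lower with a median of 0.21, 0 being called at the unadjusted limit, and Atp2a2, the most abundant, differed by 0.39 (SE 0.11, adjusted p = 0.0881). Of 12 muscle glycolysis genes, 4 were higher and 8 lower with a median of -0.06, 0 being called at the unadjusted limit, and Aldoa, the most abundant, differed by -0.11 (SE 0.14, adjusted p = 0.754). Gapdh, also on that list, ran from 315 to 21338 counts per library. In OE-WD against OE-CTD 1 slow fibre gene was higher and 11 lower, with a median of -0.15, and in OE-WD against CT-WD 5 were higher and 7 lower, with a median of -0.02. Of the glycolysis genes, 1 was higher and 11 lower in OE-WD against CT-WD (median -0.22), and 11 were higher and 1 lower in CT-WD against CT-CTD (median 0.10). In the 4 comparisons other than OE-CTD against CT-CTD, 0 genes of these 3 lists were called at the unadjusted limit of edgeR.

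Targeting of c-Myc was not visible in the mouse gene, which does not report on the human transgene. Myc was at 4.59, 6.11 and 4.45 CPM in CT-CTD and at 6.63, 5.87, 6.84 and 3.06 CPM in OE-CTD, a log2 difference of 0.16 (SE 0.32, adjusted p = 0.863). In CT-WD it ran from 4.93 to 13.3 CPM and in OE-WD from 5.22 to 9.03 CPM. In CT-WD against CT-CTD the log2 difference of Myc was 0.84 (SE 0.33, edgeR adjusted p = 0.604), past the unadjusted limit with groups that overlapped. In OE-WD against CT-WD it was -0.49 (SE 0.30). Reads of the human transgene were not examined.

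Among 11783 protein-coding genes with a mean of at least 1 CPM, the 5 most like Eya4 over the 14 libraries, by Pearson's r of log2 CPM, were Kcnf1 (r = 0.893, Spearman's rho = 0.873), Cblb (0.883, 0.802), Klhl2 (0.868, 0.899), Syne1 (0.861, 0.763) and Mat2a (0.859, 0.780). The libraries share their groups, so these values hold the difference between the genotypes as well as any variation within a group. In OE-CTD against CT-CTD the log2 differences were -1.10 for Syne1, -1.89 for Kcnf1, -0.49 for Klhl2, -0.30 for Cblb and -0.24 for Mat2a. Since these genes were picked for their likeness to Eya4 over the same libraries, a lower level in OE is built into the choice. The 5 genes most like Six2, the most abundant member, were Bod1 (r = 0.863, rho = 0.846), Zfp706 (0.855, 0.789), Poll (0.841, 0.807), Ubac1 (0.840, 0.877) and Pkig (0.838, 0.824).

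Among the members themselves the correlations were of both signs. Over the 14 libraries the lowest Pearson's r of log2 CPM between members was -0.73 for Six2 and Eya2, and the highest was 0.60 for Six4 and Eya2. Eya4 had its lowest r with Six5, -0.52, and its highest with Eya1, 0.07.

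Since Six-family proteins bind MEF3 sites and Myc binds E-boxes, the promoter windows of the members were searched for both motifs on both strands. The windows hold 300 bases, 250 before to 50 after a start, from RefSeq in GRCm38.p6. Of the 7 members 5 had a window, and Eya1 and Eya2 had none. The E-box letters CACGTG were in 0 windows of the 5 members and in 7.15% of 32851 windows of all genes. The MEF3 letters TCAGGTTTC were in 1 of the 2 Six4 windows, in no window of Six2, Six5, Eya3 or Eya4, and in 0.429% of all windows. The shorter letters TCAGGTT, part of the same match, were in 4.07%. The Six4 match is shown because it is the 1 member window that holds the motif through which the family acts. It lies at chr12:73113326-73113354 on the plus strand, opposite to the gene. These bases are within the annotated span of Six4, 73099609 to 73113456. They are upstream of the start of their own window and downstream of the start of the other Six4 window. The MEF3 letters are in capitals.
Six4: atctggccgaTCAGGTTTCccccaggcca
A match of letters is a description and not a bound site, and no match says only that the letters are not in the window.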

How the data were processed

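Poly(A)-selected RNA of skeletal muscle was sequenced in 14 libraries. The authors deposited a count per gene and library, and a second deposited table gives FPKM, counts scaled by gene length and by a library total that was 79.9% to 98.0% of the summed counts. The submitters' processing notes name HISAT2 2.0.5, featureCounts 1.5.0-p3 and mm10. The strand setting is not given in the sources used here. Counts were fitted in edgeR 4.0.16 (R 4.3.3) with TMM normalisation, filterByExpr, 1 mean per group and the quasi-likelihood test, with Benjamini-Hochberg adjustment over the 15458 genes kept. The pooled biological coefficient of variation was 17%. Calls required an adjusted p under 0.05, or an unadjusted p under 0.05, and a fold over 1.5. Likeness used log2 CPM with a prior count of 2. The fit was checked on simulated data.

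The members and lists were chosen with earlier results of these data known. Named genes were the 7 members, the 5 genes most like Eya4 and the 5 most like the most abundant member, Myc, and list genes past a limit or, where none was, the most abundant of the list. The lists reported were other network genes, fast fibre, slow fibre, glycolysis, defining muscle, satellite cell, tendon, fibroblast, endothelial, adipocyte, macrophage and epidermal genes. Schwann cell genes were reported as sums only. Positions were checked against GENCODE M21, in which 99.93% of the gene identifiers were found. Correlations between libraries with the same replicate number were 0.385, 0.123 and 0.203 for CT-WD with CT-CTD, which pairs these libraries by the rule used (over 0.1 for each), and 0.071, 0.138, 0.142 and 0.338 for OE-WD with OE-CTD, which by that rule does not, the first being under 0.1. With the replicate block in the fit, Eya4 in OE-CTD against CT-CTD was at -0.65 (adjusted p = 0.00793).

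The alternatives were RLE size factors, no filter on low counts, DESeq2 1.42.0, limma 3.58.1 on log2(FPKM + 1) and log2(FPKM + 0.1), the replicate block, each comparison on its 2 groups only, each library left out in turn, and an exchange of the group names OE-CTD and CT-WD. Precision is limited by 3 or 4 libraries per group. The standard errors, SDs and p-values treat the libraries of a group as independent. The description numbers shared among OE libraries leave that uncertain, and spreads could be too small if such libraries share an animal.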

Additional observations from a re-analysis of the deposited data

Results flagged for a closer look

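In the OE-WD group, replicate 1 was far from the other 3 libraries for 2 of the 16 groups of values tested, those of the 7 members and Myc in the 2 groups with 4 libraries. For Eya4 it was the highest at 44.9 CPM, and the gap to the next library was 0.879 of the whole range. For Myc it was the highest at 9.03 CPM, and the gap was 0.864 of the range. Both are above Dixon's 95% critical value for 4 libraries, which chance passes in about 5% of groups. The OE-WD values of Eya4 span 40.7 to 44.9 CPM, a range that lies below every CT library. What sets replicate 1 apart was not tested.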

How the results depend on the processing

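The count of members called in OE-CTD against CT-CTD was 1, Eya4. It was 0 with limma on log2(FPKM + 1), and 0 to 1 with each library left out in turn, 0 being the value without CT-CTD replicate 1. In both cases Eya4 was still lower with an adjusted p under 0.05, and the fold was under 1.5. With OE-CTD and CT-WD trading names, the count was 0 in OE-CTD against CT-CTD, 0 in OE-WD against CT-WD, 1 in CT-WD against CT-CTD and 1 in OE-WD against OE-CTD, because that turns genotype comparisons into diet comparisons. In the other settings run the counts at the adjusted limit were as reported, also without the 2 libraries with a normalisation factor under 0.9 and without the 3 libraries with over 80 CPM of epidermal genes, both chosen after seeing the data. None of those 3 is in OE-CTD or CT-CTD. At the unadjusted limit OE-WD against CT-WD had 2 members with the replicate block and 2 without CT-WD replicate 1, against 1. At that limit OE-CTD against CT-CTD had 0 members with limma on log2(FPKM + 1), against 1. Without CT-CTD replicate 1 it had 1, a member other than Eya4, since the fold of Eya4 was under 1.5 there.

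Of the 35 pairs of member and comparison, the 15 whose log2 difference exceeded its standard error kept their direction in every setting that kept the group names. Of the other 20, 15 changed sign in at least 1 setting and 0 were called in any. The log2 difference of Eya4 in OE-CTD against CT-CTD ran from -0.71 to -0.55. Counting error for Eya2, at 32 to 125 counts, is 17.7% to 8.94%, below its pooled spread of 40.5% between replicates.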
